A study of Mus musculus with 6 samples.

Results

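Lysosomal hydrolases, lysosomal membrane proteins and subunits of the lysosomal proton pump were followed in pancreatic macrophages through acute pancreatitis. The 54 genes were chosen by name from the 31617 genes of the deposited table, with the cathepsins left out, and all 54 were found and were among the 10000 genes with the highest mean. They comprise 9 membrane proteins, 11 genes of lipid and sphingolipid breakdown, 12 of glycan breakdown, 7 proteases and other luminal proteins, 5 subunits of the V0 part of the pump, 8 of its V1 part and 2 accessory subunits. The macrophages, CD45+CD11b+F4/80+ cells of the pancreas, came from Balb/c mice of wild type genotype, and their RNA was sequenced as 1 library for each of 6 groups, with 14853084 to 25726455 reads counted per library. The groups were mock mice given saline (day 0) and mice harvested 1, 3, 4, 5 or 7 days after the start of a course of 10 hourly caerulein injections. Caerulein acts like cholecystokinin and drives acinar cells to secrete beyond their capacity. Day 4 comes from its sample label and is missing from the list of days in the design text. A library held the pooled cells of more than 3 mice. With 1 library a group there is no replicate to check any difference against, and no p-value is given for a pair of days. All comparisons with mock share the same mock library. The sort admits any cell carrying these surface proteins, so a pool may hold resident macrophages and recruited monocyte-derived cells alike, and fewer cells of a type cannot be told apart from less RNA per cell.

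Lysosomes are acidic organelles in which macrophages break down engulfed cells, lipoproteins and microbes. Soluble hydrolases are carried there on mannose 6-phosphate tags. Membrane proteins such as Lamp1 line the organelle, others such as Npc1 export its products, and the vacuolar ATPase acidifies it. In that pump the cytosolic V1 part hydrolyses ATP and the membrane V0 part conducts protons. Many of these genes carry a short palindromic site in their promoters that is bound by TFEB, TFE3 and MITF, transcription factors which mTORC1 holds in the cytosol of fed cells.

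The sites with the letters of that motif are shown for 4 of the genes with the largest spread between libraries. They come from RefSeq promoters on the GRCm38.p6 build, read 5′ to 3′ in the direction of the gene, with the motif in capitals. Gla holds TCACGTGA 2 times, and the copy shown, on chrX:134601183-134601210 (minus strand), begins 195 bases before the start of the gene. Ifi30 holds it at 197 bases before the start, on chr8:70766843-70766870 (minus strand). Atp6v1a holds it at 132 bases, on chr16:44139344-44139431 (minus strand). Lgmn holds the shorter TCACGTG at 50 bases, on chr12:102439096-102439182 (minus strand), before 1 of its 2 starts in the table. Stretches are shown with 40 bases to each side of the motif, or with 10 where the longer stretch overlaps an annotated exon of any gene. Those of Gla and Ifi30 overlap an annotated exon even at the shorter length.
Gla: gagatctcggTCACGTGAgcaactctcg
Ifi30: tccaaaaactTCACGTGAccagacatgc
Atp6v1a: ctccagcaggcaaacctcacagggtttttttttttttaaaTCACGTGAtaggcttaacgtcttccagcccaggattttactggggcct
Lgmn: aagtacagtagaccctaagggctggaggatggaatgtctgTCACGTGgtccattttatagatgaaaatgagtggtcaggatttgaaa

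Promoters of 46 of the 54 genes were matched by symbol. The missing entries are Npc1, Asah1, Galns, Atp6v0d2, Atp6v1b2, Atp6v1c1, Atp6v1g1 and Atp6v1h. Motifs were searched on both strands in the 250 bases before each start. Each longer motif contains the shorter ones. The 6 letters CACGTG stood in 13 of the 46 lysosomal promoters (28.3%), against 10.4% of 7658 expressed genes and 6.86% of all 27025 genes with a promoter in the table. The same 13 also held it with a T before it, TCACGTG, against 6.20% of expressed and 3.58% of all genes. TCACGTGA stood in 5 (10.9%), namely Gla, Ifi30, Atp6v1a, Cln3 and Mcoln1, against 1.97% of expressed and 0.907% of all genes. A match describes these letters alone and says nothing of binding, and the shares were not tested.

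In the deposited scaling most of the 54 genes stood above mock on days 1 to 5 and below it on day 7. A ratio here is the log2 ratio of normalised read counts with a pseudocount of 17.8, and a gene is counted as higher or lower at 2-fold. On day 1, 10 genes exceeded mock by at least 2-fold, against 6.68% of the 10000 expressed genes, and 1 was at least 2-fold lower, against 9.58%. Those higher were Npc1, Npc2, Gla, Galns, Acp2, Lgmn, Atp6v1a, Atp6v1c1, Atp6v1d and Atp6v1h, and the 1 lower was Arsb. Atp6v1g1 lay just inside 2-fold, at 1.00. The median ratio of the 54 was 0.31, beside 0.15 over all expressed genes, and 39 of the 54 were above mock, beside 60.1% of expressed genes. Both when scaled by total reads and after quantile normalisation 28 of the 54 were. The count past 2-fold also depends on the scaling of day 1: 4 were higher when each library was scaled by its total reads and 3 after quantile normalisation, while all expressed genes split into 382 higher and 1286 lower when scaled by total reads, against 668 and 958 here.

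On day 3 fewer genes passed 2-fold, with 2 at least 2-fold higher (Galns and Lgmn), against 3.73% of expressed genes, and 0 lower, against 5.71%. Still 47 of the 54 were above mock, beside 56.7% of expressed genes, with a median of 0.27 beside 0.08 over all genes. On day 4, 5 were at least 2-fold higher (Npc1, Hexa, Sgsh, Atp6v0d2 and Atp6v1a), against 3.31%, and 0 lower, against 8.11%. The median was 0.52, beside -0.01 over all genes, and 47 were above mock, beside 48.9% of expressed genes. On day 5, 6 were higher (Grn, Sgsh, Idua, Acp2, Pla2g15 and Atp6v0d2), against 3.68%, and 0 lower, against 6.4%. Here 49 of the 54 were above mock, beside 60.4% of expressed genes, and the median was 0.46 beside 0.12. When scaled by total reads the expressed genes split into 224 higher and 1029 lower on day 4 (331 and 811 as deposited), and into 240 and 749 on day 5 (368 and 640). After quantile normalisation the split of day 4 was 462 and 719.

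No gene of the 54 was 2-fold higher on day 7 than in mock, against 1.96% of expressed genes, and 3 were lower (Gla, Ifi30 and Atp6v1e1), against 6.57%. Only 18 of the 54 were above mock, beside 42.4% of expressed genes, and the median was -0.20, beside -0.11 over all genes. That sign turned with the scaling, to 0.08 when scaled by total reads, where 30 of the 54 were above mock, and to 0.13 after quantile normalisation, where 37 were. The expressed genes split into 562 higher and 296 lower when scaled by total reads, 266 and 498 when centred on the median gene and 435 and 509 after quantile normalisation, against 196 and 657 as deposited.

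**Figure D1:**
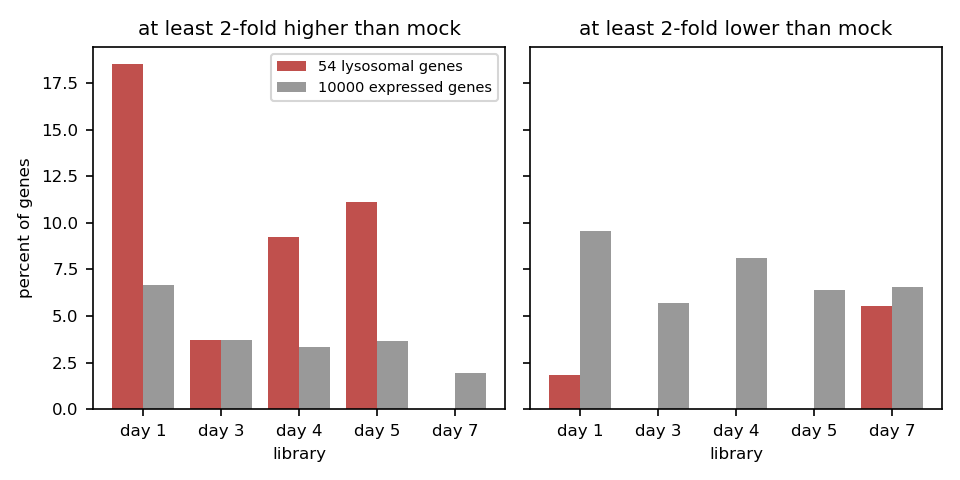
Percent of the 54 lysosomal genes and of the 10000 expressed genes that were at least 2-fold higher (left) or lower (right) than mock, by library (horizontal axis), from the deposited scaling. The lysosomal bars exceed the grey ones on the higher side on days 1, 4 and 5, and lie under them on the lower side on every day.

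Taken as a share of all reads, which amounts to scaling by total reads, the 54 genes held 2.09% of reads in mock. In the caerulein libraries they held 2.66%, 2.69%, 2.68%, 3.07% and 2.28%, in order of day. The share was highest on day 5 and lowest in mock. The summed normalised counts were also highest on day 5, at 571769, but lowest on day 7, at 315432 against 351190 in mock. Per kilobase of exon, on the mean over the libraries, Psap stood highest at 24558 normalised reads, followed by Lgmn at 21864, Grn at 18963 and Lamp1 at 14663. The lowest were Atp6v0c at 43.7, Npc1 at 52.5 and Atp6v0d2 at 63.6. Exon lengths are from GENCODE and only approximate here, since no source used here names the annotation used for counting.

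Between successive days at most 7 of the 54 genes moved by 2-fold in either direction. From day 1 to day 3, 2 were higher (Glb1 and Arsb), against 9.72% of expressed genes, and 2 lower (Gla and Acp2), against 8.21%, though 4 higher and 0 lower after quantile normalisation. From day 3 to day 4, 2 were higher (Npc1 and Atp6v0d2), against 3.23%, and 0 lower, against 5.89%. From day 4 to day 5, 1 was higher (Acp2), against 5.4%, and 2 lower (Npc1 and Atp6v0d2), against 3.11%, though 0 and 4 when centred on the median gene and 0 and 3 after quantile normalisation. The step from day 5 to day 7 had 0 higher, against 5.07%, and 7 lower, against 4.68%: Lamp1, Npc2, Gla, Grn, Acp2, Lgmn and Atp6v1g1. The number lower was 2 when scaled by total reads and 4 after quantile normalisation. In that step 50 of the 54 were lower and 4 higher, while 29.6% of expressed genes were higher, with a median of -0.78 beside -0.25 over all genes, and the sign of the median held under every scaling tried. In the same step the expressed genes split into 507 higher and 468 lower as deposited, 839 and 145 when scaled by total reads, 624 and 281 when centred and 556 and 313 after quantile normalisation. Splits of the step from day 3 to day 4 were 323 and 589 as deposited, 448 and 487 when centred and 413 and 491 after quantile normalisation. Those of the step from day 4 to day 5 were 540 and 311, 356 and 536, and 394 and 430 in the same order.

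Day 4 and day 5 were each the highest library for 17 of the 54 genes, day 1 for 12, day 3 for 4, day 7 for 3 and mock for 1 (Gm2a). Over all expressed genes the highest library was day 4 for 12.4% and day 5 for 18.0%. It was day 1 for 30.1%, day 3 for 19.4%, day 7 for 15.1% and mock for 4.89%. Day 4 or day 5 was the highest library for 34 of the 54 genes as deposited. That number was 28 when scaled by total reads and 39 after quantile normalisation. Day 7 was the lowest library for 32 of the 54 (59.3%), beside 34.7% of all expressed genes, though for 18 when scaled by total reads and 15 after quantile normalisation. From the lowest to the highest library 4 genes spanned at least 4-fold (Atp6v0d2, Gla, Arsb and Atp6v1d), against 14.7% of expressed genes. Without the day 7 library only Atp6v0d2 and Arsb did, against 11.6% of expressed genes, and without mock the same 4, against 14.3%. The median range was 1.15 on the log2 scale, beside 1.07 over all genes. Of the 54, 22 ranged over less than 2-fold, beside 4557 of the 10000 expressed genes.

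**Figure D2:**
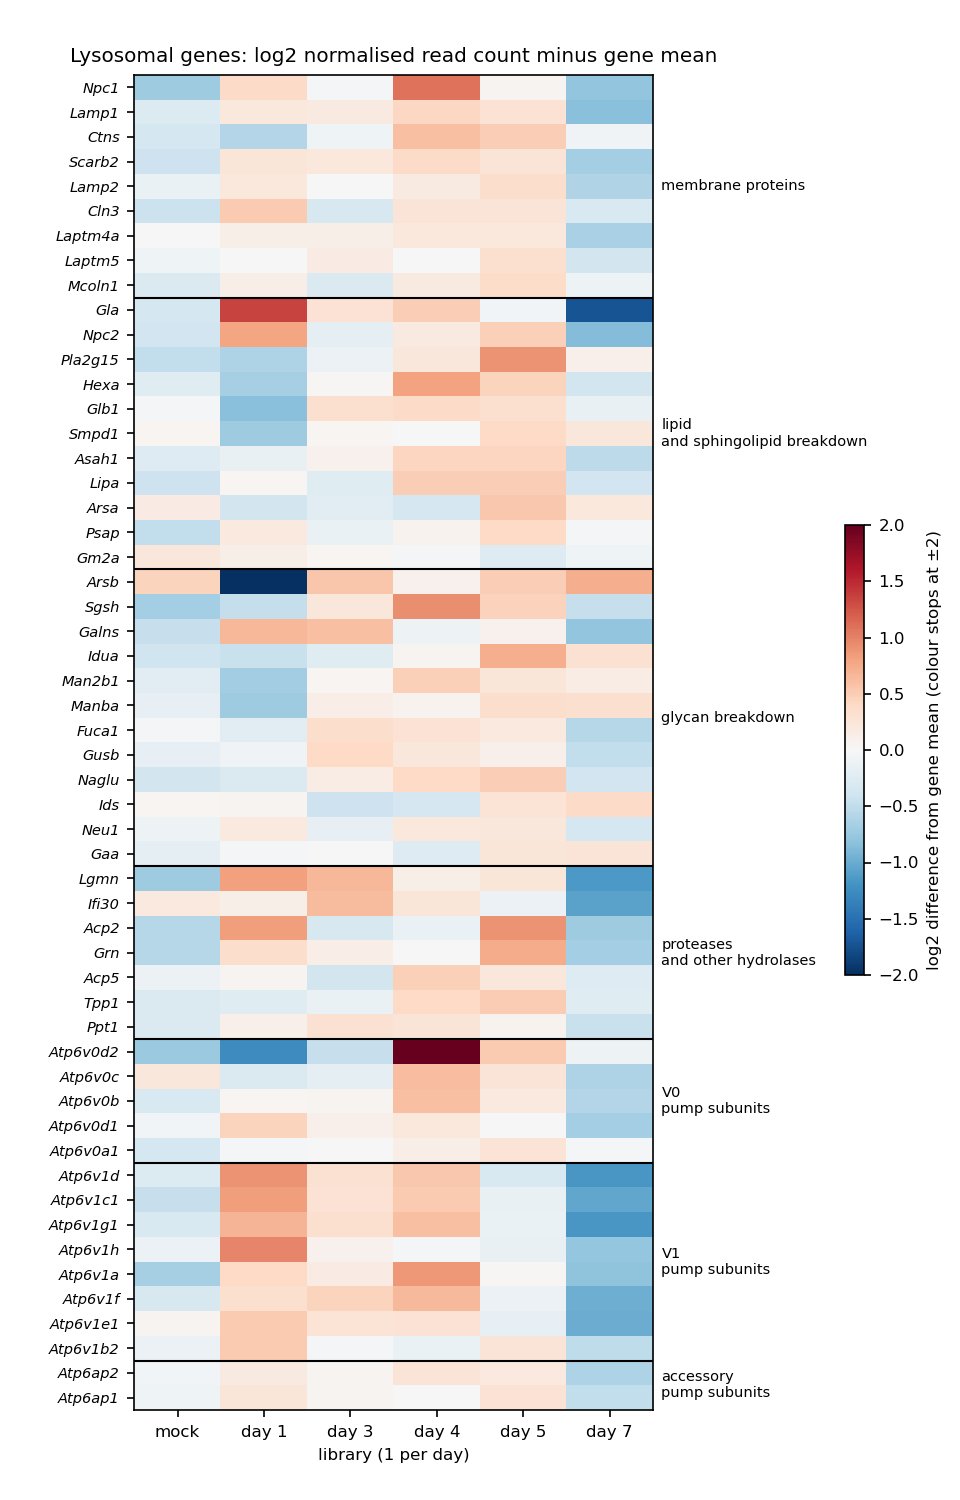
Log2 normalised read count of each of the 54 genes (rows, grouped by role, largest range first) minus its mean over the 6 libraries (columns, 1 library per day). The V1 subunits are high on days 1 and 4 and low on day 7, Atp6v0d2 stands out on day 4, and Arsb is low on day 1 alone.

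The 9 membrane proteins of the organelle were highest on days 4 and 5, with median ratios to mock of 0.69 and 0.66 and all 9 above mock on both days. Npc1, which exports cholesterol from the lysosome, counted 320 normalised reads in mock, then 703, 524, 1157, 558 and 301 over days 1, 3, 4, 5 and 7. Day 4 stood well above the other days, and mock and day 7 were lowest. Its ratio on day 4 was 1.80, a fold of 3.48 (95% counting interval of the ratio of reads, here and below on the log2 scale, 1.67 to 2.04). Its ratio on day 1 was 1.09, and 0.86 when scaled by total reads, where it no longer reached 2-fold. Lamp1, an abundant glycoprotein of the membrane, counted 31152.5 in mock, then 43757, 42807, 50394, 46184 and 21043 over days 1, 3, 4, 5 and 7. The 4 libraries of days 1 to 5 lay above mock and day 7 below it. Of the others, Cln3 was at 0.95 on day 1, and Ctns, the cystine exporter, at 0.94 on day 4. Scarb2, the carrier of glucocerebrosidase, stayed between 0.63 and 0.80 on days 1 to 5. The calcium channel Mcoln1, Lamp2, Laptm4a and Laptm5 stayed within 2-fold between all libraries.

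Genes of lipid and sphingolipid breakdown parted on day 1 and were mostly above mock on day 5, with 10 of 11 higher and a median of 0.68. Gla, the α-galactosidase that trims globotriaosylceramide, counted 1008 in mock, then 3293, 1571, 1805, 1239.6 and 376 over days 1, 3, 4, 5 and 7. It was highest on day 1 and lowest on day 7, and every step but that from day 3 to day 4 was downward after day 1. Its ratio to mock was 1.69 on day 1 (95% counting interval 1.61 to 1.81) and -1.38 on day 7 (-1.59 to -1.26), and both stayed past 2-fold under every alternative tried. Npc2, the soluble partner that hands cholesterol to Npc1, counted 10506 in mock, then 23687, 11990.1, 15627.5, 19221 and 7503 over those days. It was high on days 1 and 5 with a dip on day 3, so that its highest day was not that of Npc1. Its ratio on day 1 was 1.17, and 0.93 when scaled by total reads.

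Pla2g15, a phospholipase, counted 3145 in mock, then 2861, 4084, 5161, 8237 and 4733 over days 1, 3, 4, 5 and 7. It climbed to day 5, when its ratio was 1.38, and day 1 was its lowest library. Hexa, the α subunit of β-hexosaminidase, was likewise lowest on day 1 (-0.41) and was at 1.06 on day 4 (0.86 when scaled by total reads). Day 1 was the lowest library for 5 of these 11 genes, beside 19.4% of expressed genes. Among the 5 were Glb1, which encodes β-galactosidase, at -0.81, and Smpd1, acid sphingomyelinase, at -0.75. Arsa, which desulfates sulfatide, was below mock on days 1, 3 and 4, at -0.53, -0.37 and -0.50, and at 0.38 on day 5. Gm2a, the activator protein with which Hexa works, counted 11766 in mock, then 10913, 10424, 9877, 8425 and 9515 over days 1, 3, 4, 5 and 7. It had the smallest range of the 54, and it was the only one highest in mock. Lipa, which splits cholesteryl esters, was at 0.91 on both day 4 and day 5, and Asah1, acid ceramidase, at 0.68 on both. Psap, the precursor of the saposins, was at 0.68 on day 1 and 0.89 on day 5.

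Glycan breakdown stayed near mock on day 1, with a median of 0.05 that was below 0 in every scaling but the deposited one, and all 12 genes were above mock on day 5 (median 0.46). It was the only one of the 7 groups with a median above 0 on day 7 in the deposited scaling, at 0.26, with 7 of 12 above mock. When scaled by total reads and after quantile normalisation the membrane, lipid and protease groups were above 0 as well. After quantile normalisation so was the median of the V0 subunits, at 0.05. Arsb, a sulfatase of dermatan and chondroitin sulfate, counted 2079.96 in mock, then 299, 2249, 1629, 2155 and 2536 over days 1, 3, 4, 5 and 7. Day 1 lay far below the other 5 libraries, which were within 2-fold of one another. The ratio on day 1 was -2.73 (95% counting interval -3.0 to -2.61), a fold of 6.62 downward. Sgsh, a sulfatase of heparan sulfate, counted 442 in mock, then 513, 849, 1397, 1003 and 521 over those days. Mock, day 1 and day 7 were low and days 3 to 5 high, and its ratio on day 4 was 1.62 (1.5 to 1.82). Galns, a sulfatase of keratan sulfate, was instead high on days 1 and 3, at 1.12 and 1.06 (0.88 and 0.95 when scaled by total reads). Idua, which cleaves the iduronic acid of the same chains as Arsb and Sgsh, was at 1.13 on day 5 and 0.99 when scaled by total reads.

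Gaa, which breaks down glycogen, counted 1289 in mock, then 1439.8, 1481, 1239.5, 1755 and 1776 over days 1, 3, 4, 5 and 7. Neu1, a sialidase, counted 2260.45 in mock, then 2776, 2154, 2808, 2836 and 1887 over those days. Only Gm2a had a smaller range than Gaa, and only these 2 a smaller one than Neu1. The remaining members of the group, Gusb, Fuca1, Naglu, Ids, Man2b1 and Manba, lay between -0.54 and 0.85 in all comparisons with mock.

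Among the 7 proteases and other luminal proteins, 6 were above mock on day 5 (median 0.79) and 6 below it on day 7 (median -0.14, and 0.14 when scaled by total reads). Lgmn, the asparaginyl endopeptidase that activates other lysosomal proteases, counted 27819 in mock, then 80337, 72203, 49584, 54149 and 20647 over days 1, 3, 4, 5 and 7. It stayed high from day 1 to day 5 and was lowest on day 7. Its ratio was 1.53 on day 1 (95% counting interval 1.51 to 1.55) and 1.38 on day 3, both past 2-fold under every alternative. Acp2, a lysosomal acid phosphatase, counted 1572 in mock, then 4177, 1864, 2129.7, 4398 and 1431 over those days. It was high on days 1 and 5 and low on the others, with ratios of 1.40 and 1.47. Ifi30, a thiol reductase that unfolds proteins for antigen processing, counted 4121 in mock, then 3933, 5605, 4257, 3343 and 1704. It was highest on day 3 and lowest on day 7, at -1.26, and -0.99 when scaled by total reads. Grn, which encodes progranulin, was at 1.32 on day 5 and 0.92 on day 1. The peptidase Tpp1 was at 0.79 on day 5, Ppt1, a thioesterase, at 0.60 on day 3, and Acp5, the tartrate-resistant phosphatase, at 0.60 on day 4.

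**Figure D3:**
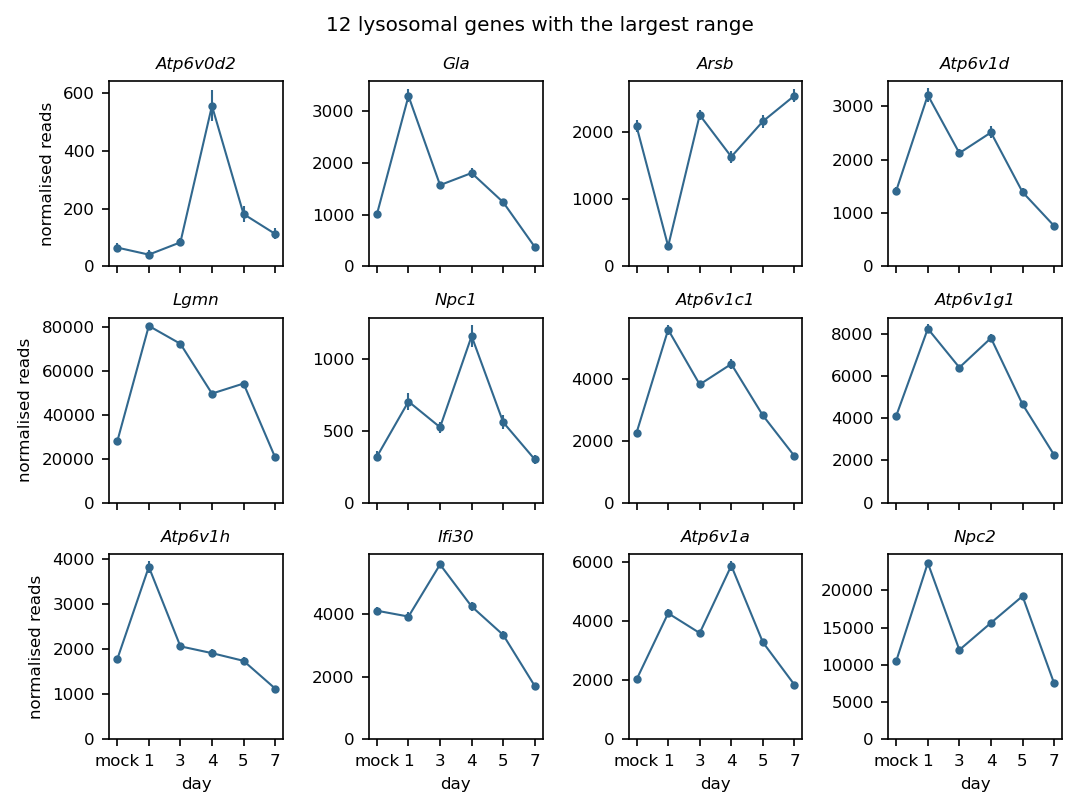
Normalised read counts (vertical axes, each from 0) of the 12 genes with the largest range, in mock and over days 1, 3, 4, 5 and 7. Each point is 1 library and bars are 95% Poisson intervals of its reads, which cover counting error only. Atp6v0d2 has a high day 4, Arsb a low day 1, and the V1 subunits and Gla end lowest on day 7.

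The V1 part of the pump was the group with the highest median on day 1 and the lowest on day 7. All 8 subunits were above mock on day 1, with a median ratio of 1.03, and below it on day 7, with a median of -0.66, and these signs of the median held under every scaling tried, at 0.69 to 1.03 and -0.72 to -0.38. On day 7, 1 of the 8 was above mock when scaled by total reads, and 2 were after quantile normalisation. The median was 0.61 on day 3, 0.87 on day 4 and 0.19 on day 5. Atp6v1d, of the central shaft that turns with ATP hydrolysis, counted 1420.1 in mock, then 3211, 2125, 2511, 1394 and 759 over days 1, 3, 4, 5 and 7. Atp6v1c1, of the part that joins V1 to V0, counted 2266 in mock, then 5599, 3826, 4487, 2825 and 1510.2. Both were highest on day 1, had a further peak on day 4 and were lowest on day 7. Their ratios on day 1 were 1.17 (95% counting interval 1.08 to 1.27) and 1.30, and that of Atp6v1d was 0.92 when scaled by total reads.

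Atp6v1g1, of the outer stalk, counted 4114 in mock, then 8237, 6399, 7794, 4660.1 and 2262 over days 1, 3, 4, 5 and 7. It followed the same course as Atp6v1d. Atp6v1h, a regulatory subunit, counted 1776 in mock, then 3831, 2064, 1912, 1741 and 1125. It was high on day 1 alone, at a ratio of 1.10 (0.86 when scaled by total reads). Atp6v1a, the catalytic subunit, counted 2018 in mock, then 4260.4, 3591, 5872, 3278 and 1839.6 over those days. It was highest on day 4, at 1.53 (1.47 to 1.62), and its ratio of 1.07 on day 1 was 0.83 when scaled by total reads. Atp6v1f, of the shaft, counted 2204 in mock, then 3421, 3734, 4289, 2541 and 1385. It too was highest on day 4 and lowest on day 7. Atp6v1e1, of the stalks, was at -1.05 on day 7 (-0.77 when scaled by total reads), and Atp6v1b2 was at 0.63 on day 1. Day 1 was the highest library for 6 of the 8 subunits, though for 1 after quantile normalisation. Day 7 was the lowest for all 8, though for 6 when scaled by total reads and after quantile normalisation. Over all expressed genes day 1 was the highest library for 30.1% and day 7 the lowest for 34.7%.

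Within 1 library the difference between 2 groups of genes hardly depends on the scaling factor. The median of the 8 V1 subunits exceeded that of the 30 genes of lipid, glycan and protein breakdown by 0.95 on day 1, 0.32 on day 3 and 0.36 on day 4. It lay under it by a difference of -0.31 on day 5 and -0.55 on day 7. Thus the V1 subunits led the hydrolases early in the course and trailed them late, each day as its own ratio to the shared mock. Against glycan breakdown alone the difference was 0.99 on day 1 and -0.91 on day 7.

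**Figure D4:**
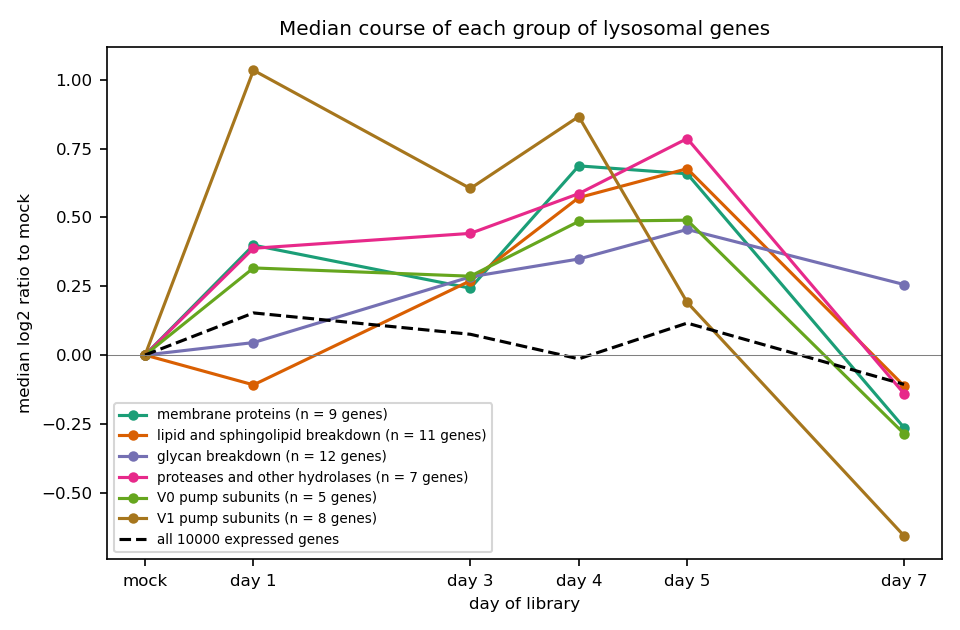
Median log2 ratio to mock (vertical axis) of 6 groups of lysosomal genes and of all 10000 expressed genes (dashed) by day; the 2 accessory subunits are not drawn, and mock is 0 by definition. The V1 subunits reach 1.03 on day 1 and -0.66 on day 7, while the hydrolase groups and membrane proteins are highest on days 4 and 5.

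All 5 subunits of the V0 part were above mock on day 4 (median 0.49) and higher on day 4 than on day 3 (median 0.56), under every scaling tried. From day 5 to day 7 all 5 were lower, with a median of -0.66, though 1 was higher when scaled by total reads and after quantile normalisation. On day 1, 3 of the 5 were above mock. The widest range of the 54 genes lay in this group. Atp6v0d2, a form of subunit d found mainly in osteoclasts and some macrophages, counted 64.9 in mock, then 40.6, 83.1, 555, 181 and 112 over days 1, 3, 4, 5 and 7. Day 4 stood above all other libraries and day 1 below them. Its ratio to mock was 2.79 on day 4, a fold of 6.93 (95% counting interval 2.72 to 3.49 on the log2 scale), and 1.26 on day 5. Atp6v0d1, the form made in all tissues, counted 1589 in mock, then 2245, 1769.9, 1912, 1638 and 1027. It was highest on day 1, with a smaller peak on day 4. Per kilobase of exon, Atp6v0d2 amounted to 2.70% of Atp6v0d1 in mock (95% interval from the reads, 2.08% to 3.44%), 1.19% on day 1 and 3.10% on day 3. It then amounted to 19.2% on day 4 (17.2% to 21.4%), 7.29% on day 5 and 7.22% on day 7. This ratio does not depend on the scaling of the libraries, and its intervals on days 5 and 7 lay above that of mock.

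**Figure D5:**
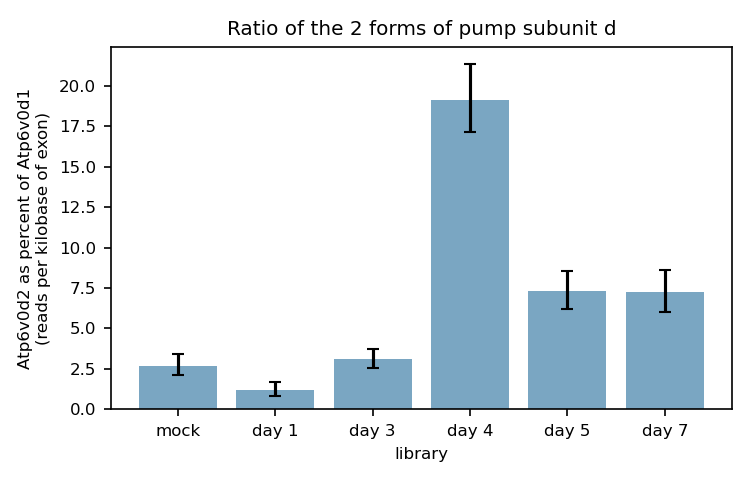
Reads per kilobase of exon of Atp6v0d2 as a percent of those of Atp6v0d1 in each library, with 95% Clopper-Pearson intervals of the reads carried over to the ratio. Day 4 stands at 19.2% and all other libraries below 9%.

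Atp6v0c, the proton-carrying ring subunit, counted 168 in mock, then 112, 122, 226, 174 and 86.2 over days 1, 3, 4, 5 and 7. It was highest on day 4 and lowest on day 7. Its values are uncertain, because no source used here says how reads shared with processed copies were counted. A pseudogene of it in the table had at most 2 reads in any library. Atp6v0a1, of the proton channel, counted 1437 in mock, then 1794, 1845, 2019.75, 2216 and 1796, and was among the 4 genes of smallest range. Atp6v0b, another ring subunit, was at 0.91 on day 4. The accessory subunit Atp6ap1 counted 9967 in mock, then 12556, 11064, 10577.5, 12971.5 and 7574 over those days. The other, Atp6ap2, which is also the prorenin receptor, counted 5183 in mock, then 6077, 5561, 6442, 6129 and 3497. Both stayed within 2-fold between all libraries and were lowest on day 7.

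Further lists of genes of the lysosome were described in the same way. Over all expressed genes, 6.68%, 3.73%, 3.31%, 3.68% and 1.96% were at least 2-fold higher than mock on days 1, 3, 4, 5 and 7. The shares at least 2-fold lower were 9.58%, 5.71%, 8.11%, 6.4% and 6.57%, and the medians 0.15, 0.08, -0.01, 0.12 and -0.11. The counts of every further list below stand beside these shares and were not tested against them. Of 16 other pump subunits and assembly factors, 10 were expressed, with median ratios to mock of 0.72, 0.28, 0.36, 0.18 and -0.41 on days 1, 3, 4, 5 and 7, signs which held under every scaling. Of them 2 were at least 2-fold higher (Atp6v0a2 and Tmem199) and 1 lower (Atp6v0e2) on day 1. Dmxl1 was the 1 higher on day 4, Tcirg1 the 1 higher on day 5 and Atp6v0e the 1 lower on day 7. Dmxl1 and Tcirg1 are named after their values were seen. Atp6v0e counted 4838 in mock, then 8406, 7659, 7913, 4869 and 2349.7, a course like that of V1, with day 7 at -1.04. The assembly factor Tmem199 was at 1.04 on day 1. Atp6v0a2 was at 1.22 and Atp6v0e2 at -1.22 on that day.

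All 27 other lysosomal proteins on the list were expressed. On day 1, 4 were at least 2-fold higher (Hyal1, Cd68, Clcn7 and Slc29a3) and 0 lower. Galc and Cd63 were at least 2-fold higher on days 3 and 4, Cd68 on day 4, and Cd63 and Slc29a3 on day 5. On the lower side, 1 passed on day 3 (Plbd1), 1 on day 4 (Hgsnat) and 0 on day 5, and on day 7 none passed 2-fold in either direction. Clcn7, Slc29a3, Plbd1 and Hgsnat are named after their values were seen. The medians of the 27 were 0.34, 0.22, 0.44, 0.49 and -0.22 on days 1, 3, 4, 5 and 7, and that of day 7 turned to 0.061 when scaled by total reads. Cd63, a tetraspanin of late endosomes, was at 2.02 on day 4, and Galc, galactosylceramidase, at 1.62. Cd68, the glycoprotein of macrophage lysosomes, was at 1.16 on day 1 and 1.02 on day 4. Hyal1, a hyaluronidase, was at 1.58 on day 1.

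Of 10 genes of mannose 6-phosphate tagging and transport, 1 was at least 2-fold higher on day 1 (the receptor Igf2r, at 1.53), and 0 passed 2-fold against mock on the other days. Their medians were 0.67, 0.22, 0.04, 0.26 and 0.23, and that of day 7 was above 0 under every scaling tried. The sign of day 4 turned to -0.15 when scaled by total reads. Sort1 was at 0.64 on day 3, Gnptg at 0.66 on day 1 and Gga3 at 0.76 on day 7.

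Of 17 genes of the TFEB family and of mTORC1 at the lysosome, 16 were expressed, with medians of 0.40, 0.20, 0.63, 0.26 and -0.38, signs which held under every scaling. Of them 1 was at least 2-fold higher on each of days 1 and 4 (Fnip2, of the folliculin complex, at 1.52 and 1.5) and on day 5 (Rptor), and 3 were lower on day 7 (Tfec, Rraga and Lamtor5). Fnip2, Rptor and Rraga are named after their values were seen. The transcription factor Mitf counted 535 in mock, then 724, 692, 1009, 674 and 308, highest on day 4. Its relative Tfec was at -1.01 on day 7. Lamtor5 and Lamtor2, which anchor mTORC1 to the lysosome, were at -1.17 and -0.85 on day 7 and at 0.72 and 0.80 on day 3. Rragd, a GTPase of the same system and a known target of TFEB, was outside the expressed genes and is named after its values were seen. It counted 25.8 in mock, then 16, 29.6, 135, 59.3 and 54.1 on days 1, 3, 4, 5 and 7, with day 4 highest as for Atp6v0d2.

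Since Atp6v0d2 is also an osteoclast gene, 10 other osteoclast genes were looked at, of which 4 were expressed. Against mock, 2 were at least 2-fold higher (Ctsk and Tnfrsf11a) and 1 lower (Mmp9) on day 1, 1 higher (Ctsk) and 0 lower on day 3, and 0 higher and 1 lower (Mmp9) on each of days 4, 5 and 7. Ctsk, the collagenase of osteoclasts, counted 43.0 in mock, then 231, 170, 99.6, 29.1 and 60.8 over days 1, 3, 4, 5 and 7. Its highest day was day 1, when Atp6v0d2 was lowest. Mmp9 was at -1.47 on day 4, Nfatc1 at -0.70 and Tnfrsf11a at -0.56.

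Markers of other cells moved with the same libraries. The 8 macrophage markers fixed for the sort, among them Adgre1, Itgam and Ptprc, were all found and expressed, with a summed normalised count of 87641 in mock, then 138577, 98487, 127423, 151316 and 88112 over days 1, 3, 4, 5 and 7. Their share of reads, like that of the 54 genes, was lowest in mock, at 0.521%, and highest on day 5, at 0.813%. Single markers did not all follow that sum. Csf1r was at -1.04 against mock on day 1, while 3 of the 8 were at least 2-fold higher. Itgam was at -1.46 on day 4 and -1.44 on day 5, while 3 and 4 of the 8 were at least 2-fold higher. On day 4 only 4 of the 8 were above mock. From day 5 to day 7 the median ratio of the 8 markers was -1.14, with 5 at least 2-fold lower (Adgre1, Cd68, Fcgr1, Mertk and Mpeg1). The part of these 8 markers in the lysosomal differences was not tested. Cd68 is also on the list of other lysosomal proteins. Markers of acinar cells (8 of 8 found, 0 at 0 reads in any library) summed to 510597 in mock and 595649 on day 7, or 3.04% and 4.31% of reads. On days 1 to 5 they summed to between 23430 and 78877, or 0.126% to 0.435%. The acinar level was thus high in mock and on day 7, where the lysosomal share of reads was lowest, and its part in the differences was not tested. The steps between days 1, 3, 4 and 5 leave both libraries out. Monocyte markers (6 of 6, 0 at 0) summed to 129797 on day 1 and to between 17544 and 48486 in the other libraries. On day 1, 4 of the 6 were at least 2-fold higher than mock, and Fn1 was at least 2-fold lower. In the deposited scaling the V1 median was also highest on day 1. When centred it was higher on day 4 than on day 1 (0.931 and 0.925), as after quantile normalisation (0.893 and 0.692). Fibroblast markers (8 of 8, 0 at 0) summed to 15691 on day 3 and to between 517 and 8418 in the others. Neutrophil markers (7 of 7, 0 at 0) summed to 11030.3 on day 4 and to between 458 and 7488 in the others. Single neutrophil markers did not follow that sum. Of the 5 expressed, 1 was at least 2-fold higher than mock on day 4 (Retnlg). The other 4 were at least 2-fold lower (S100a8, S100a9, Ngp and Cxcr2), and the median ratio of the 5 was -1.41. Markers of duct, B, T and NK, dendritic, erythroid and endothelial cells each held at most 0.0352% of reads in any library. The part of these cells in the differences was not tested either.

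The 1 contrast tested across all genes set the 5 caerulein libraries against mock, as if the days were replicates. By limma with Benjamini-Hochberg adjustment over 10000 genes, 0 genes were called at an adjusted p under 0.05 (0%), and 64 had an unadjusted p under 0.05. None of the 54 was called, and 0 had an unadjusted p under 0.05. The mean of the 5 libraries was above mock for 46 of them. edgeR's quasi-likelihood test on the recovered reads called 0 of 14106 genes, with 102 at an unadjusted p under 0.05, and DESeq2 called 2, with 117, neither of them among the 54. The design treats differences between days as error, so it bears little on genes high on 1 day.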

How the data were processed

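The authors deposited 1 table of normalised signal per gene for 31617 genes and 6 libraries. Each column holds whole multiples of 1 step (100% of values within 0.01 reads), so the signal is a read count divided by 1 factor per library, and these factors equal median-of-ratios size factors. The submitters' processing notes name Bowtie 0.12.2 and the build mm8 and give neither a role. How reads were counted (program, annotation, strand) was not given in the sources used here. RNA was total RNA from cells lysed in Trizol, per the labels' protocols.

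The 54 genes and the other lists were chosen with earlier results of these data known. Groups came from the sample labels. Ratios are log2(value + 17.8), the pseudocount being the mean column total divided by 1000000, which understates ratios of low genes. Expressed genes are the 10000 with the highest mean (at least 74.1). Intervals are 95% Clopper-Pearson intervals of the recovered reads, without pseudocount, and cover nothing but counting error, as PCR copies of a molecule cannot be told apart in these reads. On the log2 scale they reached 0.079 to either side of their middle at the median over the 54 genes and 5 days, and at most 0.63. A floor of 3 reads is worth 2.11 to 3.88 normalised units, and the 54 genes had 33 to 102517 reads in a library.

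Any of the 54 genes may be named. Values in all 6 libraries are given for the 16 with the largest range, the 4 with the smallest and the 2 with the largest range in each role, and ratios for the 4 with the largest range of each further list. Rragd and others outside that rule are marked. Itgam is on more than 1 line of the table, and the line whose identifier the name table pairs with it was used. The 5 caerulein libraries were set against mock with limma 3.58.1, and with edgeR 4.0.16 and DESeq2 1.42.0 on 14106 genes with at least 60 recovered reads, in R 4.3.3. The limma calculation was tested on simulated data in which the caerulein libraries did not differ by day. The edgeR and DESeq2 calculations were not tested in this way. Tables were handled in pandas 2.3.3 and numpy 2.4.6, intervals in scipy 1.17.1 and plots in matplotlib 3.10.9, under Python 3.11.15. Alternatives were other pseudocounts and scalings, no filter on low values, the count tests and leaving out libraries. Protein sequences were not used here. Some results for genes of the further lists are not reported here, nor are counts that would need them.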

Additional observations from a re-analysis of the deposited data

How the results depend on the processing

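Alternatives to the deposited scaling were scaling by the total reads of each library, centring on the median expressed gene, TMM factors and quantile normalisation. When scaled by total reads the median ratio of the 54 genes to mock was 0.061, 0.16, 0.32, 0.31 and 0.078 on days 1, 3, 4, 5 and 7, so that the sign of day 7 reversed. On day 1, 4 genes were then at least 2-fold higher and 2 lower, on day 3, 1 was higher, and on day 7, 1 was lower. After quantile normalisation the median was 0.058 on day 1 and 0.13, reversed, on day 7, with 3 genes higher and 2 lower on day 1, 1 higher on day 3, and 1 higher and 1 lower on day 7. Centring gave 8 higher on day 4 and a median of 0.35 on day 5. A pseudocount 5 times larger gave 1 higher on day 3.

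Between successive days, the median from day 1 to day 3 reversed to 0.11 when scaled by total reads, 0.027 when centred, 0.077 with TMM factors and 0.20 after quantile normalisation. From day 3 to day 4 it was 0.32 when centred and 0.30 after quantile normalisation. From day 4 to day 5 it reversed to 0.0081 when scaled by total reads and was -0.21 when centred and -0.14 after quantile normalisation. From day 5 to day 7 it was -0.35 when scaled by total reads, -0.59 when centred and -0.36 after quantile normalisation. The median over all expressed genes moved as well, from 0.15 to -0.08 on day 1, from -0.01 to -0.20 on day 4, from -0.11 to 0.16 on day 7 and from -0.25 to 0.16 from day 5 to day 7 when scaled by total reads. Relative to that median the 54 genes stood at 0.50 to 0.53 on day 4 and at -0.54 to -0.29 from day 5 to day 7, over all scalings and pseudocounts. On day 1 they stood at 0.15 as deposited and at -0.012 after quantile normalisation, and on day 7 at -0.096 and 0.099. All these alternatives start from the same reads and differ only in the scaling or pseudocount applied.

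Of the 27 ratios of single genes past 2-fold against mock, 25 stayed past it with TMM factors, 23 when centred, 24 and 27 with the larger and smaller pseudocount, 17 after quantile normalisation and 16 when scaled by total reads, and none reversed. Leaving out the day 7 or the mock library, chosen after seeing the data, left 2 or 4 genes with a range of at least 4-fold. Leaving out each caerulein library in turn kept the limma count at 0 of 10000 genes. No paired analysis was possible because each group has 1 library and the labels carry no replicate numbers. The depth of 33 reads or more bounds counting error, while the spread between pools of mice is unknown.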
